A study of Mus musculus with 4 samples.

Results

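The insulin-like growth factor (IGF) system was followed here through 10 genes: the ligands Igf1 and Igf2, the receptors Igf1r and Igf2r, and the binding proteins Igfbp2, Igfbp3, Igfbp4, Igfbp5, Igfbp6 and Igfbp7. They were taken by symbol from the 32286 genes of each count matrix, and all 10 had a row in every matrix. The cells were tdTomato+ cells sorted from vertebrae T11 to L2 of mice in which the Cre recombinase under the Prss56 promoter, active in boundary cap cells and their progeny, switches on the tdTomato reporter. Single-cell RNA-seq (10x Genomics 3′ chemistry) gave 1 library per condition: Prss56Cre/+;R26tdTom/tdTom;Nf1+/+ (labelled control) and Prss56Cre/Cre;R26tdTom/tdTom; Nf1fl/fl (labelled mutant), each at 3 months and at 12–16 months. All 4 carried the reporter on both alleles, and the libraries labelled mutant carried Cre on both copies of Prss56 while those labelled control carried it on 1 copy, so Cre dose and Nf1 genotype cannot be told apart. How many mice went into a library is not given in the sources used here, and no library had a replicate. CD45+, CD11b+ and CD31+ cells were discarded in the sort.

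IGF1 and IGF2 are secreted peptides that signal through the tyrosine kinase receptor IGF1R, whereas IGF2R takes up IGF2 and carries it to lysosomes without signalling as a kinase. Most circulating and tissue IGF is held by binding proteins: IGFBP2 to IGFBP6 bind the ligands with high affinity and can block or deliver them, and IGFBP7 binds them weakly. In the skeleton IGF1 made in the liver and by local cells drives growth plate chondrocytes and osteoblasts, and NF1 is a brake on RAS, which acts downstream of IGF1R.

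Cells were kept above 750 unique molecular identifiers (UMIs) and 500 genes and below 7% of UMIs from mitochondrial genes, which left 717, 484, 135 and 421 cells. Here and throughout, 4 values are listed with age 3 months before age 12–16 months and, within an age, the control label before the mutant label. The median cell had 11467, 12644, 11702 and 8189 UMIs, and no barcode was shared between libraries. Each cell was placed in a gate by raw UMIs: endplate (Sox9 of 1 or more and Zfp804b plus Dab1 of 3 or more), other cartilage (Sox9 of 1 or more and Acan of 3 or more), bone/stroma (Acan of 2 or less and Runx2 of 1 or more) or mural (Rgs5 plus Myh11 of 3 or more). The gates held 30, 142, 11 and 38 endplate cells, 532, 235, 78 and 219 other cartilage cells, 43, 39, 25 and 77 bone/stroma cells, and 8, 19, 2 and 19 mural cells. Levels are CPM, the UMIs of a gene in counts-per-million of all UMIs summed over the cells of a gate in a library. A UMI stands for 1 captured transcript, and levels were not divided by gene length. Whether capture inside long genes, away from the transcript end, added UMIs was not tested. Intervals are exact Poisson 95% intervals that cover counting error only.

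Nf1, the targeted gene, stood at 131, 150, 147 and 125 CPM over all passing cells and did not fall with the mutant label at 3 months. UMIs near the transcript end can be counted with or without the deleted exons, so this level does not test the deletion, and the libraries are named by their labels. Most marker lists fitted the gates. The 6 mural and smooth muscle markers summed to between 14982 and 21413 CPM in mural cells and to 576 CPM or less in the other gates. Other cartilage cells also carried the fibroblast markers (Dcn, Gsn, Dpt and Pdgfra) at 8009 to 17174 CPM beside 7 cartilage markers at 10932 to 15229 CPM. The 8 osteoblast and osteocyte markers summed to 94407, 8274, 154832 and 48218 CPM in bone/stroma, lower with the mutant label at each age. How much of the bone/stroma ratios below goes with this difference was not tested. The bone/stroma gate went against its label in part. It held 1, 23, 2 and 7 cells with Ptprc, which encodes CD45, and these gave 78.1% of its UMIs in the 3-month library labelled mutant. The 5 hematopoietic markers summed to 10.4, 5969, 962 and 2740 CPM in that gate and to 8.83 CPM or less elsewhere. All 5 were above 0 in 3 of the 4 bone/stroma sums, and the bone/stroma levels of the members are therefore given below with and without Ptprc+ cells; those of other pathway genes are over all cells of the gate, and the part of the Ptprc+ cells in them was not tested.

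The 10 genes differed widely in UMIs. Igfbp7 had 22309 UMIs in all passing cells, Igfbp5 had 6289, Igfbp4 had 6211, Igf1r had 5253, Igf2r had 2092, Igfbp6 had 1634, Igf1 had 361, Igfbp3 had 234 and Igf2 had 126. Igfbp2 had a single UMI, in 1 endplate cell, so it is not described further. A count of 0 was taken at a floor of 3 counts. In the deepest gate, other cartilage of the 3-month library labelled control, this floor is 0.393 CPM. The plot of levels by gate shows the 9 other genes.

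**Figure D1:**
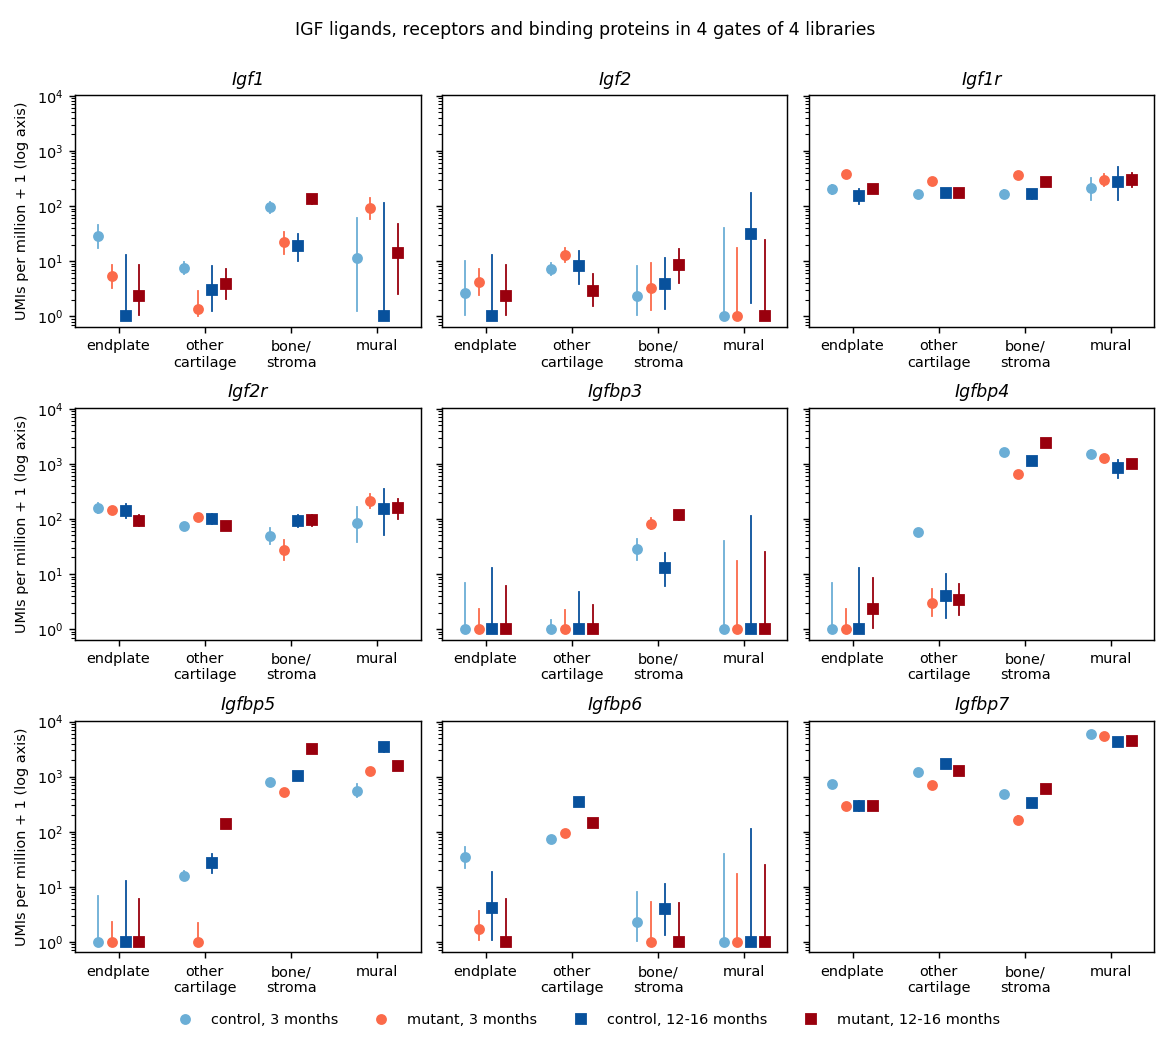
Each panel plots 1 gene, with CPM plus 1 on a log axis against gate; a point is 1 library and its bar the exact Poisson 95% interval. Igfbp4 and Igfbp5 were above 500 CPM in every bone/stroma and mural sum and at or near 0 in endplate, Igfbp6 lay highest in other cartilage, Igfbp7 highest in mural cells, and Igf1r lay between 150 and 382 CPM in all gates.

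Because binding proteins separated the gates, the upstream sequences of the 4 that did so most sharply are shown first. They are the 250 bases before the RefSeq start in GRCm38.p6, 5′ to 3′ on the gene's strand, in lower case with motif matches in capitals. TATAAA (core promoter box) was sought on the gene's strand alone. GGGCGG (GC box), TGTGGT (RUNX site) and AACAAT (SOX site) were sought on either strand. For Igfbp5 the 19 bases nearest the start are left out because a transcript of the annotation covers them. Igfbp3 (the bone/stroma gene, chr11:7213924-7214173, minus strand) held TGTGGT at position -223, and Igfbp4 (chr11:99040994-99041243, plus strand) held TATAAA at -28. Igfbp5 (chr1:72874885-72875115, minus strand) and Igfbp6 (the other cartilage gene, chr15:102143936-102144185, plus strand) held no match.
Igfbp3: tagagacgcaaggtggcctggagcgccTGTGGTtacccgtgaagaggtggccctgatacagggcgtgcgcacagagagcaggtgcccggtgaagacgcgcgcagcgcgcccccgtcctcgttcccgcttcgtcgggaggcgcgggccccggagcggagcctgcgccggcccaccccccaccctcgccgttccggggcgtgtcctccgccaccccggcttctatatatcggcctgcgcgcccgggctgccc
Igfbp4: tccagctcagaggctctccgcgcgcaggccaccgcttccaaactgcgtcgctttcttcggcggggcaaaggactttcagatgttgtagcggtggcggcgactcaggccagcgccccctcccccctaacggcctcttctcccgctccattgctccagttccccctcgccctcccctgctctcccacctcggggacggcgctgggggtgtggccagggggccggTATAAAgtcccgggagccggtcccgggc
Igfbp5: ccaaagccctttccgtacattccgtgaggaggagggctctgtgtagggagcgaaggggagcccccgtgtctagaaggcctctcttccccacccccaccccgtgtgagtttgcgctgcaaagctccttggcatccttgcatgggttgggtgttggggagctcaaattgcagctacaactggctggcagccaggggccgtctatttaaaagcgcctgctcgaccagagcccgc
Igfbp6: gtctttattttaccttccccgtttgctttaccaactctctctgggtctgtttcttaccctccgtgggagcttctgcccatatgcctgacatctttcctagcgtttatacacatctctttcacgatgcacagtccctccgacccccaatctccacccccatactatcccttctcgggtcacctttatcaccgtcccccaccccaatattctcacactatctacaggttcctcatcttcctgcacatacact

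The same letters occurred in many promoters. TGTGGT was found in 14.05% of 32851 mouse promoter windows of 250 bases, TATAAA in 7.59% (gene's strand alone), GGGCGG in 32.7% and AACAAT in 9.42%. Base composition differed among the 4: G and C made up 73.2% of the Igfbp3 window, 69.2% of Igfbp4, 60.6% of the Igfbp5 bases shown and 49.6% of Igfbp6. GC boxes were found for Igf1r, Igf2r, Igfbp7, 1 of the 2 Igfbp2 windows and 2 of the 4 Igf2 windows. Igfbp2 and Igfbp5 lie 5457 bases apart on chromosome 1 (chr1:72824503-72852474 and chr1:72857932-72874884), yet 1 of them gave a single UMI and the other 6289.

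The tests between gates took the 4 libraries as replicates, with the library as a block, in edgeR's quasi-likelihood test on summed UMIs with Benjamini-Hochberg adjustment over 11387 genes. Sums of fewer than 10 cells were left out, which removed both mural sums labelled control, so mural values rest on the 2 libraries labelled mutant. Of the 10 genes, 8 passed the filter on low counts, and Igf2 and Igfbp2 did not. In bone/stroma against other cartilage, 4 members were higher and 2 lower, where 34.2% of all genes tested were called. In mural against other cartilage, 4 were higher and 1 lower, with 20.6% of genes called. In endplate against other cartilage, 4 were lower and 0 higher, with 16.8% called (7.23% higher and 9.57% lower), and at an unadjusted p under 0.05 the edgeR count was also 4. In bone/stroma against endplate, 4 were higher and 0 lower, with 31.6% called. Igfbp3 and Igfbp6 passed the filter only through the gate where they were high, so their calls add no support to these counts.

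Igf1 (chr10:87858265-87937042) was mainly a bone/stroma transcript. It stood at 94.7, 20.9, 17.4 and 133 CPM in bone/stroma, with Igf1 UMIs in 30.2%, 17.9%, 12.0% and 39.0% of the cells. In other cartilage it stood at 6.41, 0.327, 2.01 and 2.86 CPM, in endplate at 27.4, 4.31, 0 and 1.34 CPM, and in mural cells at 10.5, 92.7, 0 and 12.8 CPM. Without Ptprc+ cells the bone/stroma levels were 94.97, 89.98, 10.03 and 145 CPM. Bone/stroma and other cartilage did not overlap, whereas mural cells spanned both. Endplate overlapped bone/stroma: its 27.4 CPM lay above the bone/stroma values of 20.9 and 17.4 CPM, although bone/stroma was higher than endplate within each library. The difference of bone/stroma from other cartilage was 4.51 ± 0.76 on the log2 scale (SE, n = 4 libraries, edgeR adjusted p = 0.00065) and that from endplate 3.17 ± 0.76 (adjusted p = 0.0073). The mural difference from other cartilage, 4.69 ± 1.11 (adjusted p = 0.010), rested on the 3-month library labelled mutant, where 5 of 19 mural cells held the 21 Igf1 UMIs. Without that library it was 1.19 (adjusted p = 0.75).

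Some of the Igf1 outside bone/stroma came from very few cells. In other cartilage of the 3-month library labelled control, 32 of the 49 UMIs were in 1 cell that met the gate with 28 Sox9 and 78 Acan UMIs and also held 347 Cxcl12 and 240 Igfbp4 UMIs. That cell had 48936 UMIs, against a library median of 11467, and was not called a doublet. Of the bone/stroma cells with Igf1 UMIs, 10 of 13, 5 of 7, 3 of 3 and 27 of 30 also had Igf1r UMIs. Igf1r was also common in the gate as a whole, in 31 of 43, 34 of 39, 18 of 25 and 65 of 77 cells, so nothing particular is read from this overlap.

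Igf2 (chr7:142650766-142666816), the fetal growth ligand, was near the limit of detection. It reached 6.15, 12.1, 7.04 and 1.91 CPM in other cartilage, and 7.61 CPM or less in endplate and bone/stroma. In mural cells it was at 0 in 3 libraries and at 1 UMI in the other. Single cells held at most 3 Igf2 UMIs in the other cartilage sums of 3 months, so the 47 and 37 UMIs there were spread over 35 and 29 cells. The share of other cartilage cells with an Igf2 UMI was 6.58%, 12.3%, 5.13% and 1.37%. The 12, 19 and 23 hematopoietic cells outside the endplate, other cartilage and bone/stroma gates had none. These cells had Ptprc, no Sox9 or Runx2 UMI and Acan of 2 or less. The mural gate, with 1 Ptprc+ cell in the 3-month library labelled mutant, was not excluded from them. A count of 0 of 19 cells, taken at the floor of 3 counts, is a share of 15.8%, so a lower background could not be seen.

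Igf1r (chr7:67952827-68233668), the signalling receptor, was found in every gate at similar levels. It stood at 200, 382, 150 and 202 CPM in endplate, at 164, 283, 172 and 169 CPM in other cartilage, at 166, 362, 163 and 268 CPM in bone/stroma and at 211, 300, 274 and 302 CPM in mural cells. Without Ptprc+ cells bone/stroma stood at 165, 286, 125 and 270 CPM. Within each gate the 3-month library labelled mutant was highest or, in mural cells, close to the highest, and the ranges of all 4 gates overlapped. Averaged over the libraries, the order was mural (272 ± 42.6 CPM, SD, n = 4), bone/stroma (240 ± 94.99), endplate (233 ± 102) and other cartilage (197 ± 57.6), and no neighbours in it differed beyond their spread. In the 4 contrasts between gates Igf1r differed by between -0.02 and 0.10 on the log2 scale, with edgeR adjusted p of 0.75 to 0.98 and standard errors of 0.19 to 0.26. From 68.9% to 85.5% of other cartilage cells and 84.2% to 100% of endplate cells had an Igf1r UMI. After thinning each cell to 2000 UMIs the shares were 25.2% to 38.8% and 25.9% to 53.7%. The same hematopoietic cells also held the gene, in 0 of 12, 7 of 19 and 10 of 23 cells in the 3 libraries that had any (0%, 36.8% and 43.5%), at medians of 1182.5, 9359 and 5308 UMIs. Their summed level of 193 CPM (interval 153 to 240) was close to that of other cartilage (192 CPM over all libraries), and how much of the Igf1r in any gate was free RNA was not tested.

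Igf2r (chr17:12682406-12769664), the clearance receptor, was lower than Igf1r in CPM in every gate of every library. It stood at 158, 141, 140 and 92.3 CPM in endplate, at 72.4, 108, 98.6 and 73.9 CPM in other cartilage, at 48.0, 26.7, 90.1 and 93.5 CPM in bone/stroma and at 84.3, 212, 152 and 154 CPM in mural cells. Without Ptprc+ cells bone/stroma stood at 48.1, 90.0, 98.6 and 101.1 CPM. The means fell in the order mural (151 ± 52.2 CPM, SD, n = 4), endplate (133 ± 28.3), other cartilage (88.2 ± 17.9) and bone/stroma (64.6 ± 32.7), and the ranges of neighbouring gates overlapped. Bone/stroma was lower than endplate by a log2 difference of -0.998 ± 0.374 (SE), but the edgeR adjusted p of 0.061 missed the threshold of 0.05. It passed the threshold in 8 alternatives, with adjusted p from 0.00210 to 0.048, among them DESeq2 and the fit with no filter on cells, and it did not with stricter gates (0.0898) or without Ptprc+ cells (0.0822, log2 difference -0.56). Nor did it when either 3-month library was left out (0.212 without the control label, 0.107 without the mutant label) or when the older control-label library was (0.0755). In the 3-month library labelled mutant the bone/stroma level was 90.0 CPM in cells with no Ptprc UMI and 8.92 CPM in cells with one. Leaving out the Ptprc+ cells moved the log2 difference from -0.998 to -0.56, and the change between these fits was not tested.

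Igfbp3 (chr11:7206086-7213923) was found, among cells in 1 gate, in bone/stroma alone. It stood at 27.2, 81.2, 11.6 and 115 CPM in bone/stroma, from 21, 70, 8 and 106 UMIs, and at 0 in all endplate, other cartilage and mural sums. With a floor of 3 counts over a gate, bone/stroma was at least 291-fold higher than other cartilage, at least 94.2-fold higher than endplate and at least 10.8-fold higher than mural cells. Igfbp3 passed the filter on low counts through bone/stroma alone, so its adjusted p-values are not read. Few cells carried the gene: 5 of 43, 6 of 39, 1 of 25 and 18 of 77 bone/stroma cells had an Igfbp3 UMI. The single positive cell of the 12–16-month library labelled control was a Ptprc+ cell, so without such cells Igfbp3 stood at 27.3, 370.5, 0 and 126 CPM. Outside the gates, 10 of the Igfbp3 UMIs of the 12–16-month library labelled mutant were in 1 endothelial cell. Cells that met 2 gates, which were left out of the sums, held 19 more UMIs: 6 in 1 of 2 such cells of the 12–16-month library labelled control and 13 in 1 of 7 of the one labelled mutant.

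Igfbp4 (chr11:99041244-99054392), a binding protein that the protease PAPP-A cleaves, marked bone/stroma and mural cells. It stood at 1642, 657, 1134 and 2394 CPM in bone/stroma and at 1517, 1272, 822 and 982 CPM in mural cells, and these ranges overlapped. Bone/stroma without Ptprc+ cells stood at 1646, 2419, 1123 and 2588 CPM. In other cartilage it stood at 56.0, 1.96, 3.02 and 2.38 CPM, and the 221 endplate cells together held 1 Igfbp4 UMI. Every bone/stroma and mural value thus lay above every cartilage value. Bone/stroma exceeded other cartilage by 7.46 ± 0.81 on the log2 scale (SE, edgeR adjusted p = 2.4e-05) and mural cells did so by 7.59 ± 0.96 (adjusted p = 0.00017). With 1 UMI in endplate, the ratio of bone/stroma to endplate over all libraries was 6632, with a counting interval from 1190 to 261987.

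The single high Igfbp4 value in other cartilage came from a pair of cells. They held 240 and 139 of the 428 UMIs of the 3-month library labelled control and also 347 and 14 Cxcl12 UMIs, and their totals of 48936 and 62489 UMIs were far above the median cell. The share of other cartilage cells with an Igfbp4 UMI was 4.32%, 2.13%, 3.85% and 1.83% at a median of 12581, 11380, 10287 and 7578 UMIs per cell. The same hematopoietic cells, taken as the reference for free RNA, had shares of 8.33%, 10.5% and 21.7% in the 3 libraries that held any, at medians of 1182.5, 9359 and 5308 UMIs. The other cartilage shares were below these and are not read as expression. Over all libraries the hematopoietic cells held Igfbp4 in 14.8% and Igfbp7, the member with the most UMIs, in 5.56%. Whether their Igfbp4 was free RNA or their own was not tested, so the shares do not settle whether other cartilage cells expressed it.

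Igfbp5 (chr1:72857932-72874884), the most abundant binding protein of bone matrix, followed Igfbp4 across gates. It stood at 816, 537, 1036 and 3143 CPM in bone/stroma, at 559, 1263, 3408 and 1573 CPM in mural cells and at 15.1, 0, 26.2 and 138 CPM in other cartilage, and no endplate cell held a UMI. In bone/stroma without Ptprc+ cells the levels were 818, 2451, 628 and 3436 CPM. Bone/stroma and mural ranges overlapped, and both lay above all cartilage values. With the floor of 3 counts, Igfbp5 was at least 2156-fold higher in bone/stroma and at least 2031-fold higher in mural cells than in endplate. Against other cartilage the differences were 5.38 ± 0.96 for bone/stroma (log2, SE, edgeR adjusted p = 0.0022) and 5.84 ± 1.24 for mural cells (adjusted p = 0.0098). In other cartilage 10, 0, 3 and 11 cells had Igfbp5, and the 2 cells with the most held 66 of 115, 25 of 26 and 209 of 290 UMIs in the libraries that had any. The top cell of each held no Cxcl12 UMI and 2175, 2684 and 554 UMIs of Dcn, which encodes the matrix proteoglycan decorin. The second cell of the 3-month library labelled control held 18 Cxcl12 and 22 Igfbp4 UMIs, while the second cells of the 12–16-month libraries held no Cxcl12 UMI. The top Igfbp4 cell of that 3-month library, with 347 Cxcl12 UMIs, also held 8 Igfbp5 UMIs.

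Igfbp6 (chr15:102144362-102149511), which prefers IGF2 over IGF1, showed the opposite pattern. It stood at 73.4, 93.4, 350 and 146 CPM in other cartilage, at 33.9, 0.719, 3.18 and 0 CPM in endplate, at 1.30, 0, 2.91 and 0 CPM in bone/stroma and at 0 in every mural sum. Other cartilage was above all other gates in each library, and its lowest value exceeded their highest. Of the 24 endplate UMIs, 21 were in a single cell of the 3-month library labelled control, which held 67 Sox9 UMIs and 116 Acan UMIs. Endplate was lower than other cartilage (log2 difference -4.64 ± 0.84, SE), and so was bone/stroma (log2 difference -7.52 ± 1.09). The ratio of other cartilage to bone/stroma was 118, with a counting interval from 40.1 to 571, and other cartilage was at least 18.5-fold higher than mural cells. Igfbp6 passed the filter on low counts through other cartilage alone, so its adjusted p-values between gates are not read. The call against mural cells was also lost with stricter gates and whenever a library other than the 3-month one labelled control was left out.

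Igfbp6 was also uneven within other cartilage. From 20.9% to 26.9% of the cells had a UMI, against 0 of 12, 0 of 19 and 0 of 23 hematopoietic cells, and 8.69%, 10.2%, 18.3% and 13.3% did after thinning to 2000 UMIs. The 54, 24, 8 and 22 cells with the most Igfbp6, 10% of each sum, held 83.2% to 88.5% of the UMIs in each library. For Igfbp7 in the same cells that share was 37.3% to 60.7%. In the 12–16-month library labelled control, 2 of 78 cells held 184 of 348 Igfbp6 UMIs, so its high level rests on few cells, as the plot of concentration shows.

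**Figure D2:**
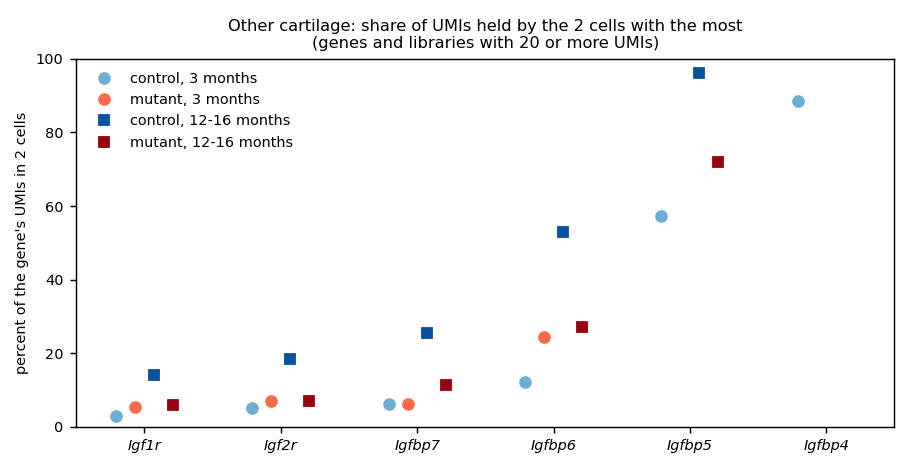
Percent of a gene's UMIs in other cartilage that the 2 cells with the most held (vertical axis) for 6 genes; a point is 1 library with 20 or more UMIs of the gene. Igf1r, Igf2r and Igfbp7 were spread over many cells, with 25.5% or less in 2 cells, whereas 2 cells held 57.4% to 96.2% of Igfbp5 UMIs and 88.6% of Igfbp4 UMIs.

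Igfbp7 (chr5:77349240-77408041), the weak binder and the member with the most UMIs, was found in all gates. It stood at 6070, 5520, 4351 and 4513 CPM in mural cells, at 1206, 710, 1693 and 1270 CPM in other cartilage, at 722, 294, 296 and 289 CPM in endplate and at 488, 164, 334 and 599 CPM in bone/stroma. Leaving out Ptprc+ cells gave 489, 730, 328 and 655 CPM in bone/stroma. Mural cells lay above all other gates without overlap, and the other neighbours overlapped. Relative to other cartilage, mural cells were higher by 2.06 ± 0.46 (log2, SE, edgeR adjusted p = 0.0074), a call that was lost without the 3-month library labelled mutant (1.34). Endplate fell by 1.84 ± 0.38 (adjusted p = 0.0060) and bone/stroma fell by 1.81 ± 0.37 (adjusted p = 0.0025) on the log2 scale. Endplate and bone/stroma differed by 0.03 ± 0.37 (adjusted p = 0.97), so a difference of either sign within that error could not be seen. All mural cells had an Igfbp7 UMI, as did 79.6% to 90.9% of endplate cells, and 0%, 5.26% and 8.70% of hematopoietic cells did.

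Which endplate cells carried Igfbp7 was related to the hypertrophy genes. Endplate cells with 3 or more UMIs of Col10a1, Ihh and Prkg2 together, which mark chondrocytes in late differentiation, numbered 14, 90, 10 and 31. They had Igfbp7 at 431, 176, 303 and 202 CPM, while the other 16, 52, 1 and 7 endplate cells had 1222, 628, 219 and 906 CPM. The second group was higher in the 3 libraries with more than 1 such cell. Its median UMIs per cell were lower in the same 3 libraries (12081, 13712.5 and 9434 against 26216, 21393.5 and 21104). Igf1r moved the same way in all 4 libraries, from 166, 363, 143 and 192 CPM in the first group to 258, 434, 219 and 270 CPM in the second. In the 12–16-month libraries the second group held only 6 Igf1r UMIs (control label, 1 cell) and 25 (mutant label, 7 cells). As the sub-gate used transcripts of the same cells, no test was made.

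Endplate against other cartilage was the least stable of the contrasts. Leaving out 1 library in turn left 1 to 3 of the 4 calls: Igfbp6 alone without the 12–16-month library labelled control, and Igfbp6 and Igfbp7 alone without the 3-month library labelled control or the 12–16-month library labelled mutant. The difference of Igfbp7 without the 12–16-month library labelled control was -1.53 on the log2 scale (-1.84 with all libraries). That of Igfbp4 ran from -7.15 to -2.68 without 1 library. Igfbp6 is counted among these calls, but its calls add no support, since it passed the filter through other cartilage alone. Stricter gates left 0 calls, with log2 differences of -1.38 for Igfbp7, -3.67 for Igfbp6 and -4.23 for Igfbp4 and adjusted p from 0.0625 to 0.184 over the 4 genes. Igfbp5 was at 0 in every endplate sum, so its fitted differences are not given. Of the 2 other calls, Igfbp4 was carried in other cartilage by the pair of cells described above.

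Taken as a share of all Igfbp2 to Igfbp7 UMIs, each gate had its own mixture, as the stacked plot shows. Igfbp7 made up 95.3% to 99.8% in endplate and 81.6% to 89.3% in other cartilage, where Igfbp6 added 5.44% to 16.9%. In bone/stroma Igfbp4 made up 38.3% to 55.2% and Igfbp5 27.4% to 50.3%, with Igfbp7 at 9.59% to 16.4%. In mural cells Igfbp7 made up 50.7% to 74.5%, Igfbp5 6.86% to 39.7% and Igfbp4 9.57% to 18.6%. The summed binding protein level was 290 to 758 CPM in endplate, 805 to 2073 CPM in other cartilage, 1439 to 6251 CPM in bone/stroma and 7068 to 8581 CPM in mural cells. The endplate and mural ranges overlapped no other, and those of other cartilage and bone/stroma overlapped. Without Ptprc+ cells the bone/stroma sums were 2982, 5970, 2082 and 6805 CPM. The lowest, 2082 CPM from 1246 UMIs, was about equal to the highest other cartilage value, 2073 CPM from 2060 UMIs. Both came from the 12–16-month library labelled control, so the 2 gates were not separated there.

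**Figure D3:**
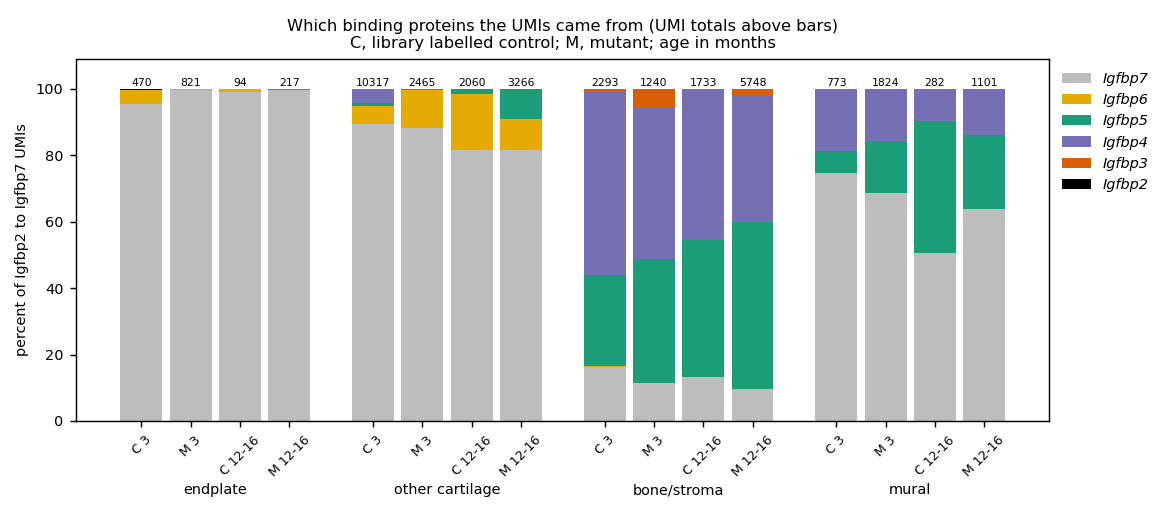
Stacked bars give the percent of Igfbp2 to Igfbp7 UMIs from each gene, by gate and library (C, labelled control; M, labelled mutant; age in months), with the UMI totals above. Endplate bars are almost all Igfbp7, other cartilage bars add Igfbp6, bone/stroma bars are mostly Igfbp4 and Igfbp5, and mural bars mix Igfbp7 with both.

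Within bone/stroma Igf1 and 4 binding proteins went with Cxcl12, the chemokine of marrow stromal cells. The gate was split at 5 Cxcl12 UMIs, giving 22, 11, 10 and 50 cells at or above and 21, 28, 15 and 27 below. Igf1 stood at 182, 128, 70.2 and 245 CPM in the Cxcl12-high cells and at 0, 1.37, 0 and 0 CPM in the others. Igfbp3 stood at 52.4, 528, 46.8 and 213 CPM in the Cxcl12-high cells and at 0 in the others. Thus all but 1 of the Igf1 UMIs and every Igfbp3 UMI of the gate were on the Cxcl12-high side.

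Igfbp4 and Igfbp5 showed the same split at higher levels. Igfbp4 stood at 2942, 3234, 4410 and 4145 CPM in Cxcl12-high cells, all of which held it, and at 232, 188, 50.3 and 331 CPM in the others. Igfbp5 stood at 1553, 3408, 4083 and 5771 CPM against 16.2, 15.1, 29.0 and 49.7 CPM. Igfbp7 stood at 855, 882, 1240 and 953 CPM against 89.2, 32.9, 34.8 and 182 CPM. Igf1r stood at 192, 294, 158 and 342 CPM against 138, 374, 164 and 180 CPM, with no single direction over the libraries. Ptprc+ cells were 23 of the 28 Cxcl12-low cells of the 3-month library labelled mutant.

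Among cells with no Ptprc UMI, 20, 5, 14 and 20 were Cxcl12-low, and in them Igf1 and Igfbp3 were at 0. Igfbp4 stood at 231, 497, 54.2 and 337 CPM in these cells, Igfbp5 at 16.3, 195, 32.6 and 61.1 CPM and Igfbp7 at 89.8, 373, 39.1 and 224 CPM. Each of these values stayed below the Cxcl12-high values of its gene, and the 3-month library labelled mutant was then the highest for all 3 genes. Igf1r stood at 136, 266, 115 and 166 CPM in the Cxcl12-low cells with no Ptprc UMI and at 192, 294, 160 and 342 CPM in the Cxcl12-high ones, so it was higher on the Cxcl12-high side in all 4 libraries. In the 3-month library labelled mutant the gap was small and the Cxcl12-low side was 5 cells. The subset was chosen after the data were seen. Summed over libraries the Igf1r levels were 142 CPM (interval 122 to 165) and 264 CPM (235 to 295). The libraries entered these sums in unequal parts on each side of the split, so the sums also carry differences between libraries. The gap between the sums is therefore not read as the size of the difference within a library.

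Of the bone/stroma cells with Igfbp3, 4 of 5, 6 of 6, 1 of 1 and 18 of 18 also had Igfbp5. Igfbp5 was common among Cxcl12-high cells whatever their Igfbp3, in 17 of 22, 9 of 11, 7 of 10 and 48 of 50, so nothing particular is read from this overlap.

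**Figure D4:**
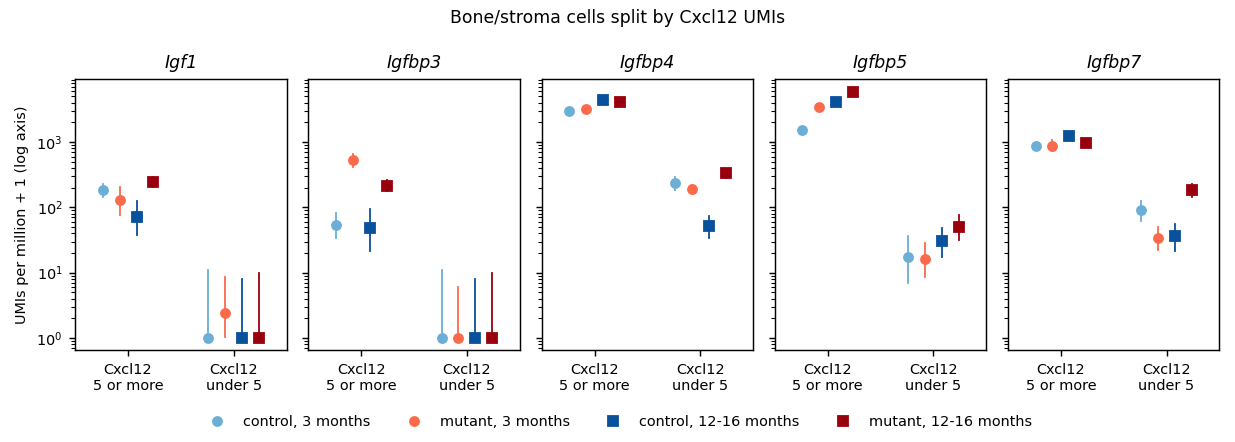
CPM plus 1 (log axis) for 5 genes in bone/stroma cells with 5 or more Cxcl12 UMIs and with fewer; a point is 1 library and its bar the exact Poisson 95% interval. In each panel all 4 Cxcl12-high points lie above the 4 others, and Igfbp3 is at 0 in the others.

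The Cxcl12-high cells were not of 1 kind in all libraries. In the 3-month library labelled control they also carried osteoblast transcripts, with Col1a1 at 24266 CPM and Bglap at 15749 CPM, below the 78670 and 31745 CPM of the Cxcl12-low cells of that library but above the other libraries' Cxcl12-high cells (at most 1995 and 234 CPM). In the 12–16-month library labelled control, 1 of the 10 cells was Ptprc+ and held 337 Igfbp5 UMIs, and without it the Cxcl12-high levels of that library were 43.6 CPM for Igf1, 0 for Igfbp3, 4704 CPM for Igfbp4 and 2625 CPM for Igfbp5.

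Other genes with the most similar pattern were sought over the 14 sums of at least 10 cells among 9598 genes with 200 or more UMIs, by Pearson's r of log2(CPM + 10). Sums of 1 library share its depth and handling, so r is a description. Igfbp4 was most like Ifitm3 (r = 0.99), Zeb2 (0.99) and Kitl (0.98), the last of which encodes stem cell factor and was a marker fixed for marrow stroma. Igfbp5 was most like C1ra (0.96), St5 (0.96) and Frk (0.95), and Igfbp3 most like Dpep1 (0.97), Eya2 (0.97) and Gsr (0.95). Igfbp6 was most like Radil (0.98), Atp6v0a4 (0.98) and Chrdl2 (0.98), and Igfbp7 most like Cavin3 (0.96), Ehd2 (0.95) and Trp53inp2 (0.95). Igf1 was most like Sdc1 (0.91), Mtch1 (0.90) and Tle2 (0.89), Igf2r most like Bmpr1a (0.93), Calcoco1 (0.91) and Nbeal1 (0.90), and Igf1r most like Gm8797 (0.89), Dock5 (0.88) and Prkd2 (0.88). Among the members themselves the closest pair was Igfbp4 and Igfbp5 (r = 0.94), followed by Igf1 and Igfbp4 (0.80).

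The rest of the pathway was followed by a list of 37 genes for receptors, adaptors, kinases, binding protein proteases and their inhibitors, of which 29 passed the filter on low counts. In endplate against other cartilage 5 were higher and 4 lower, where 16.8% of all genes tested were called. In bone/stroma against other cartilage 7 were higher and 7 lower, with 34.2% of all genes called. In mural cells against other cartilage 2 were higher and 7 lower, with 20.6% called. In bone/stroma against endplate 7 were higher and 6 lower, with 31.6% called. The median log2 difference of the list was 0.25, 0.47, -0.45 and -0.12 in these contrasts, against -0.05, 0.06, -0.19 and 0.10 over all genes tested.

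Proteases that cut binding proteins differed between gates, and so did their inhibitor. Pappa, which encodes the IGFBP4 protease PAPP-A, stood at 185, 165, 243 and 755 CPM in bone/stroma and at 43.1, 47.4, 15.1 and 32.4 CPM in other cartilage, a difference of 3.11 ± 0.68 (log2, SE, edgeR adjusted p = 0.0037). In endplate Pappa stood at 166, 167, 60.5 and 29.4 CPM. Bone/stroma was not called against endplate (log2 difference 1.64 ± 0.68, edgeR adjusted p = 0.088). The paralog Pappa2, whose product cleaves IGFBP3 and IGFBP5, stood at 31.0, 16.0, 19.1 and 79.1 CPM in other cartilage and had 2 UMIs in endplate and 1 in bone/stroma. Stc2, which encodes the PAPP-A inhibitor stanniocalcin-2, stood at 162, 160, 130 and 192 CPM in other cartilage and at 2.59, 1.16, 7.27 and 4.35 CPM in bone/stroma (log2 difference -5.59 ± 0.55, adjusted p = 1.9e-05). Htra1, a secreted serine protease, stood at 1192, 912, 1446 and 1223 CPM in other cartilage and at 213, 208, 169 and 234 CPM in endplate (log2 difference -2.72 ± 0.42, adjusted p = 0.0010).

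Receptor-proximal genes also differed. Ghr, the growth hormone receptor, stood at 575, 216, 397 and 1032 CPM in bone/stroma and at 106, 122, 93.6 and 86.3 CPM in other cartilage (log2 difference 2.32 ± 0.54, edgeR adjusted p = 0.0056). Irs2, an adaptor of IGF1R and the insulin receptor, stood at 118, 133, 163 and 94.8 CPM in other cartilage and at 13.0, 19.7, 18.9 and 15.2 CPM in bone/stroma (log2 difference -3.08 ± 0.32, adjusted p = 1.7e-05). Grb10, which encodes an adaptor that restrains IGF1R, stood at 368, 352, 305 and 385 CPM in endplate and at 81.3, 119, 85.5 and 106 CPM in other cartilage (log2 difference 1.63 ± 0.34, adjusted p = 0.0070). H19, the noncoding neighbour of Igf2, was higher in endplate than in other cartilage (log2 difference 2.16 ± 0.65, adjusted p = 0.044), although its other cartilage level in the 12–16-month library labelled mutant (80.1 CPM) was as high as in endplate (77.6 CPM). Socs2 and Stat5b, of the growth hormone signalling chain, and Pik3r1 were the other listed genes higher in endplate, and Foxo1 and Irs2 were lower there, as were Pappa2 and Htra1.

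The comparison of genotype had 1 library on each side at each age, so the ratios between libraries carry counting intervals and no p-value. Ratios are the level in the library labelled mutant divided by that in the library labelled control of the same age, and a ratio of 1.5-fold or more in either direction was counted for genes with 50 or more UMIs over both. Among pairs of member and gate, 17 of 23 passed this fold at 3 months and 10 of 19 at 12–16 months. Over all genes, the fold was passed upward by 18.5% in endplate, 10.4% in other cartilage, 36.5% in bone/stroma and 19.8% in mural cells at 3 months, and downward by 14.3%, 10.8%, 19.3% and 13.6%. At 12–16 months 15.3%, 8.75%, 28.4% and 23.5% passed upward and 10.4%, 9.28%, 5.83% and 12.0% downward. Over all passing cells 24.9% and 10.8% of genes passed upward and downward at 3 months, and 13.0% and 5.33% at 12–16 months.

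At 3 months the level of the receptor was higher in the library labelled mutant in each gate, with the mural interval including 1. The Igf1r ratio was 1.91 in endplate (interval 1.58 to 2.32), 1.73 in other cartilage (1.58 to 1.89), 2.18 in bone/stroma (1.77 to 2.70) and 1.42 in mural cells (0.855 to 2.48), and over all passing cells 1.98 (1.86 to 2.11). Over the alternatives it ran from 1.68 to 1.99 in endplate, from 1.69 to 1.78 in other cartilage and from 1.73 to 2.72 in bone/stroma. In bone/stroma without Ptprc+ cells it was 1.73 (1.23 to 2.40). At 12–16 months the same ratio was 1.35 (0.968 to 1.92), 0.980 (0.815 to 1.18), 1.64 (1.31 to 2.07) and 1.10 (0.534 to 2.56) in the 4 gates. Nf1 itself had 3-month ratios of 1.04 in endplate, 1.14 in other cartilage and 0.673 (0.496 to 0.910) in bone/stroma, where it was 1.55 (1.05 to 2.25) without Ptprc+ cells. Over all passing cells at 12–16 months it was 0.853 (0.742 to 0.982).

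Igfbp7 moved the other way in cartilage at 3 months. Its ratio was 0.407 in endplate (0.363 to 0.458) and 0.589 in other cartilage (0.561 to 0.617), and within endplate it was 0.408 among cells with 3 or more UMIs of the hypertrophy genes and 0.514 among the rest. At 12–16 months it was 0.977 (0.762 to 1.26) in endplate and 0.750 (0.705 to 0.798) in other cartilage. The endplate value joined 0.665 (0.503 to 0.882) among cells with 3 or more UMIs of the hypertrophy genes and 4.14 (1.83 to 11.6) among the rest, where the library labelled control had 1 cell. In mural cells it was 0.909 and 1.04, and both intervals included 1.

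In other cartilage the Igf2 ratio was 1.96 (1.24 to 3.09) and the Igf2r ratio 1.49 (1.30 to 1.71) at 3 months, whereas at 12–16 months Igf2r stood at 0.749 (0.578 to 0.975). The Igfbp6 ratio was 1.27 (1.10 to 1.47) and 0.416 (0.356 to 0.487) at the 2 ages, and without the cell with the most UMIs it was 1.07 and 0.595. The Igfbp5 ratio was at most 0.0813 at 3 months, where the library labelled mutant had no UMI, and 5.28 (3.53 to 8.22) at 12–16 months, or 2.75 without the top cell. Igfbp4 and Igf1 had ratios of 0.0350 and 0.0509 at 3 months, both set by the few cells named above.

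In bone/stroma the ratios turned with the Ptprc+ cells. Over all cells of the gate at 3 months the ratio was 0.221 (0.124 to 0.373) for Igf1, 0.400 (0.362 to 0.442) for Igfbp4, 0.658 (0.583 to 0.744) for Igfbp5 and 0.335 (0.274 to 0.408) for Igfbp7. Without Ptprc+ cells the same ratios were 0.947 (0.524 to 1.62), 1.47 (1.32 to 1.64), 2.99 (2.65 to 3.38) and 1.49 (1.22 to 1.82). Igfbp3 was higher in the library labelled mutant either way, at 2.98 (1.81 to 5.11) and 13.6 (8.23 to 23.3). At 12–16 months, where 2 and 7 cells were Ptprc+, the ratios over all cells were 7.61 (4.20 to 15.1) for Igf1, 9.91 (4.85 to 23.6) for Igfbp3, 2.11 (1.94 to 2.29) for Igfbp4, 3.03 (2.79 to 3.30) for Igfbp5 and 1.79 (1.53 to 2.10) for Igfbp7. Without Ptprc+ cells they were 14.5 (6.46 to 40.2) for Igf1, 2.30 (2.11 to 2.52) for Igfbp4, 5.47 (4.91 to 6.10) for Igfbp5 and 2.00 (1.70 to 2.37) for Igfbp7. For Igfbp3, with no UMI left on the control side, the interval began at 20.1. On the control side 1 of the 2 Ptprc+ cells held 337 of 713 Igfbp5, 6 of 12 Igf1 and all 8 Igfbp3 UMIs. That cell had 712 Cxcl12 and 5 Ptprc UMIs, so the larger Igf1, Igfbp3 and Igfbp5 values depend on leaving out 1 Cxcl12-high cell.

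The share of Cxcl12-high cells in the gate also moved between libraries, from 10 of 25 to 50 of 77 cells at 12–16 months. Among Ptprc-negative Cxcl12-high cells alone, the 3-month Igfbp4 ratio was 1.10 (0.982 to 1.23) and the later one 0.881 (0.806 to 0.964), and the Igfbp7 ratios were 1.03 (0.829 to 1.28) and 0.737 (0.619 to 0.880). Igfbp5 stood at 2.19 (1.94 to 2.48) and 2.20 (1.97 to 2.46), and Igf1 at 0.704 (0.389 to 1.21) and 5.62 (2.51 to 15.6). The Igfbp3 ratio was 10.1 (6.12 to 17.3) at 3 months, and at 12–16 months, with no UMI on the control side, its interval began at 7.81. These values come from 22 and 11 cells at 3 months and 9 and 50 cells at 12–16 months. The 9 leave out the Ptprc+ cell with 712 Cxcl12 and 337 Igfbp5 UMIs. With that cell kept, the 12–16-month ratio was 1.413 (1.301 to 1.538) for Igfbp5 and 3.496 (1.93 to 6.95) for Igf1. It was then 4.556 (2.23 to 10.8) for Igfbp3, and the Igfbp4 interval included 1 (0.864 to 1.023). The closeness of the Igfbp5 ratios at the 2 ages thus depends on leaving out 1 cell.

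**Figure D5:**
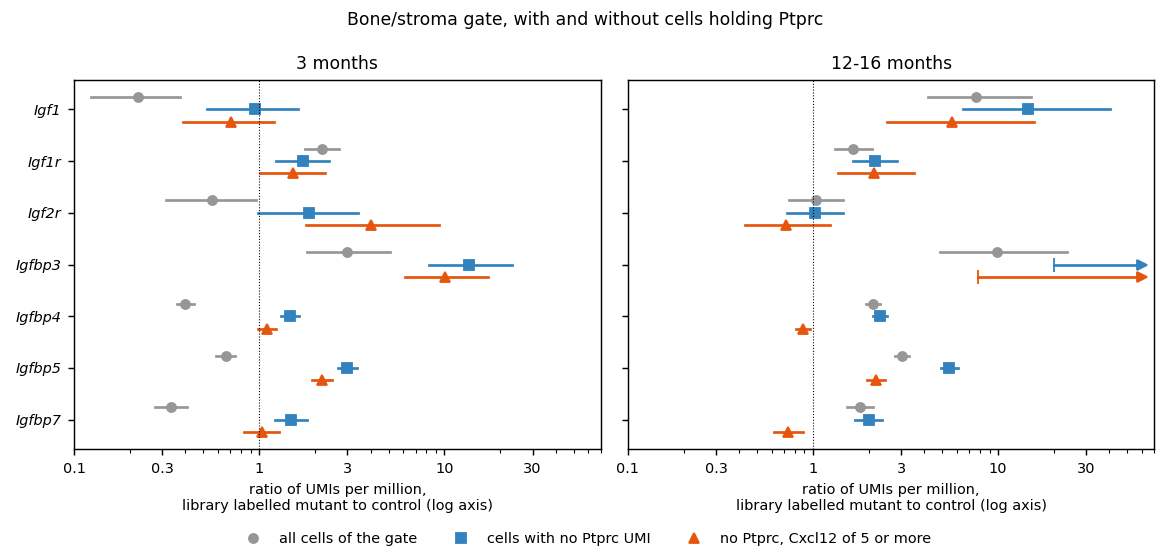
Mutant-label to control-label ratio of CPM (log axis) for 7 genes in bone/stroma at each age, over all cells, over cells with no Ptprc UMI and over those that also had 5 or more Cxcl12 UMIs; bars are exact 95% counting intervals, and an arrow marks a ratio with no control UMI. At 3 months the Igfbp4, Igfbp5 and Igfbp7 ratios lie below 1 over all cells and above 1 without Ptprc+ cells, and the Igfbp3 ratio lies above 1 in each case.

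Over both ages a weak test was possible, with 2 libraries on each side, age as a term and 1 residual degree of freedom. In edgeR no member was called for genotype in other cartilage (6 tested, 0 with an unadjusted p under 0.05, and 0.946% of all genes called, 0.742% higher and 0.203% lower), in endplate (3 tested, 0 with an unadjusted p under 0.05, 0.0123% called) or in bone/stroma (7 tested, 1 with an unadjusted p under 0.05, 0% called). DESeq2 called 0 members in these 3 contrasts. Igfbp3 in bone/stroma had the smallest p, with a log2 difference of 2.12 ± 0.58 (unadjusted p = 0.017, edgeR adjusted p = 0.998). Without Ptprc+ cells, a subset chosen after seeing the data, it was 4.11 and was called, as were 39 of 8220 genes. Igfbp3 was then at 0 in the older library labelled control. It passed the filter on low counts only with the libraries labelled mutant, so this adjusted p-value is not read.

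For age in other cartilage 0.548% of genes were called and 0 of the 6 members tested, 3 of them with an unadjusted p under 0.05. Igfbp6 had a log2 difference of 1.44 ± 0.33 between 12–16 and 3 months (edgeR adjusted p = 0.082), and both older libraries lay above both younger ones. Igfbp5 had 3.18 ± 0.93 (adjusted p = 0.23), again with both older libraries above both younger ones. Few cells carried these older levels: 2 cells held 25 of 26 Igfbp5 UMIs in the library labelled control and 209 of 290 in the one labelled mutant. For Igfbp6, 2 cells held 184 of 348 UMIs in the older library labelled control and 83 of 306 in the one labelled mutant. Igfbp7 had 0.65 ± 0.30 (adjusted p = 0.68), with both older libraries higher. DESeq2 called Igfbp6 alone (adjusted p = 0.0497), and the number of members called over the alternatives ran from 0 to 3.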

How the data were processed

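Per the labels, libraries were made with 10x Genomics 3′ v3.1 chemistry. The authors deposited 1 matrix of UMI counts per library, made with Cell Ranger 8.0.0 on mm10 plus tdTomato, and these counts are not normalised. The study describes a correction for free RNA; whether the deposited counts are before or after it is not given in the sources used here, and none was applied here. No column of per-sample values was left unused.

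The 10 members, the gates, the list of 37 pathway genes and the markers were chosen with earlier results of these data known. All 10 members are named; listed pathway genes are named only where they passed a test, and up to 3 genes of most similar pattern per member with 200 or more UMIs. Cells in 2 gates were left out, except that endplate went before other cartilage. Doublets called by Scrublet were kept in the main analysis. UMIs were summed per library and gate and tested in edgeR 4.0.16 (quasi-likelihood, TMM, filterByExpr) in R 4.3.3, with DESeq2 1.42.0 as an alternative; the code was tested on simulated data. The SE of an edgeR difference was not taken from the fit: it is the size of the log2 difference divided by the square root of the F statistic. Shares use exact Clopper-Pearson intervals. Gene positions are from GENCODE M21 on GRCm38. Nothing says that libraries came from separate animals, so p-values measure the spread between these libraries.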

Additional observations from a re-analysis of the deposited data

Results flagged for a closer look

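Several ratios of the library labelled mutant to the library labelled control ran one way at 3 months and the other at 12–16 months, with both counting intervals clear of 1. With 1 library on each side the difference between ages was not tested. In other cartilage the ratio was 1.49 and 0.749 for Igf2r, and 1.27 and 0.416 for Igfbp6. For Igfbp5 in other cartilage it was at most 0.0813 at 3 months and 5.28 at 12–16 months. Few cells set the Igfbp5 and Igfbp6 values, which counting intervals do not cover. At 12–16 months 2 cells held 25 of 26 Igfbp5 UMIs in the library labelled control and 209 of 290 in the one labelled mutant. For Igfbp6, 2 cells held 184 of 348 UMIs in that control-label library, and without the top cell the 3-month ratio was close to 1.

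In bone/stroma the ratio was 0.221 and 7.61 for Igf1, 0.400 and 2.11 for Igfbp4, 0.658 and 3.03 for Igfbp5, and 0.335 and 1.79 for Igfbp7. Ptprc+ cells were 1 of 43 and 23 of 39 cells of this gate at 3 months, and without them the 3-month ratios of Igfbp4, Igfbp5 and Igfbp7 were above 1, as at 12–16 months. The 3-month Igf1 ratio then had an interval that included 1. Among Ptprc-negative Cxcl12-high cells the 3-month intervals of Igfbp4 and Igfbp7 included 1, and their 12–16-month ratios were below 1. In mural cells the Igfbp5 ratio was 2.26 at 3 months and 0.461 at 12–16 months, where the library labelled control had 2 mural cells, 1 of them called a doublet and holding 91 of 112 Igfbp5 UMIs.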

How the results depend on the processing

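Each library was left out in turn for the gate contrasts. The calls among members then numbered 1 to 3 for endplate against other cartilage (4 with all libraries), 2 to 5 for mural against other cartilage (5 with all), 6 in each case for bone/stroma against other cartilage (6 with all) and 4 to 5 for bone/stroma against endplate (4 with all). For mural cells the 2 calls were left without the 3-month library labelled mutant, where the mural arm is 1 sample assumed to vary like the other sums. Stricter gates left 0 calls in endplate against other cartilage, and cells counted in every gate left 2. Without the replicate block there were 4, 6, 5 and 5 calls in the 4 gate contrasts, and the block changed the call of Igf2r in bone/stroma against endplate alone. In that fit Igf1r in mural against other cartilage was 0.23 (log2).

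For genotype, no filter on low counts gave 1 member called in other cartilage (Igfbp4), where 296 of 20859 genes were called. It gave 1 in endplate (Igfbp6), where 49 of 18530 genes were called. In the 3-month library labelled control, 2 other cartilage cells held 379 of 428 Igfbp4 UMIs, and 1 endplate cell held all 21 Igfbp6 UMIs. Leaving out Ptprc+ cells, chosen after seeing the data, gave 1 in bone/stroma (Igfbp3), where 39 of 8220 genes were called and which adds no support, as said above. For age in other cartilage DESeq2 gave 1, DESeq2 size factors 2, no filter on low counts 3, leaving out doublets 1, stricter gates 2 and cells in every gate 2. Without hypertrophic or Cxcl12-high cells, 5 of 8 pairs passed 1.5-fold at 3 months (9 over the same gates with all cells) and 4 of 8 at 12–16 months (7 with all). The cause of these changes was not tested. No library could be left out of the genotype and age fits, since 3 libraries leave no residual degrees of freedom.

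Log2 differences that were not called turned sign in places. For Igf1r in endplate against other cartilage this was -0.018 with no filter on low counts and between -0.092 and 0.16 without 1 library; in bone/stroma against other cartilage -0.037 without Ptprc+ cells and between -0.078 and 0.12 without 1 library; in mural against other cartilage 0.055 with DESeq2, 0.071 with its size factors, 0.080 with stricter gates, 0.064 with no filter on cells, 0.016 without Ptprc+ cells, 0.0089 with sums of 2 or more cells and between -0.41 and 0.23 without 1 library. In bone/stroma against endplate Igf1r was -0.0080 without doublets, -0.16 with stricter gates, -0.040 with no filter on cells, -0.066 without Ptprc+ cells and between -0.099 and 0.21 without 1 library. Igfbp7 there was -0.023 with DESeq2, -0.024 with its size factors, -0.028 without doublets, -0.19 with stricter gates, -0.20 with no filter on cells and between -0.46 and 0.30 without 1 library. For genotype, DESeq2 gave Igfbp5 -2.86 and Igf2 -0.21 and stricter gates gave Igfbp5 -0.40 in other cartilage; in bone/stroma cells in every gate gave Igf1 -0.23, and without Ptprc+ cells Igfbp7 was 0.46, Igfbp4 0.55 and Igf2r 0.056 (-0.62, -0.38 and -0.63 with them). The bone/stroma ratios at 3 months became 1.00 for Igf2r and 1.33 for Igfbp5 with the mean CPM per cell, and 1.87 for Igf2r, 1.47 for Igfbp4, 2.99 for Igfbp5 and 1.49 for Igfbp7 without Ptprc+ cells. The mural Igfbp5 ratio at 12–16 months became 1.40 without doublets or without the top cell.

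Over all genes, calls in endplate against other cartilage numbered 1913, and 685 with stricter gates, 948, 986 and 902 without the 12–16-month library labelled control, the 3-month library labelled control or the 12–16-month library labelled mutant, and 2140 without the 3-month library labelled mutant. Mural calls numbered 2341, and 1382 and 912 without either library labelled mutant. Genotype calls in other cartilage numbered 107, and between 44 and 301 over the alternatives. Age calls numbered 62, and between 41 and 222. DESeq2 gave no adjusted p for 878, 2414 and 4363 genes in the genotype contrast of other cartilage, the age contrast and the genotype contrast of bone/stroma.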

Other observations

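Other cartilage cells with 3 or more Igfbp6 UMIs numbered 61, 27, 13 and 25, and differed from cells with no Igfbp6 UMI in other transcripts. This split and the genes below were chosen after their values were seen, so the values are a description. Dcn, which encodes decorin, stood at 10987, 11438, 23466 and 30411 CPM in the Igfbp6-positive cells and at 4910, 3534, 10860 and 11555 CPM in the others. C3, the complement component, stood at 132, 138, 618 and 450 CPM against 20.1, 27.6, 107 and 73.0 CPM. Lepr, the leptin receptor, stood at 47.3, 90.4, 67.9 and 134 CPM against 15.6, 16.7, 7.98 and 16.7 CPM, and Thbs1, which encodes thrombospondin-1, at 842, 2192, 750 and 2215 CPM against 235, 809, 233 and 292 CPM. Sema3a, Angptl7, Dkk3, Pcolce and Thbs2 were likewise higher in the Igfbp6-positive cells of all 4 libraries. Acan was also higher in the Igfbp6-positive cells, by less (4058, 5135, 4889 and 4880 CPM against 3438, 4536, 3187 and 3987 CPM). Sox9 stood at 1140, 1507, 1546 and 1034 CPM against 1139, 1420, 1380 and 1235 CPM, and Prg4, which encodes lubricin, at 15435, 17602, 26923 and 24370 CPM against 23750, 18740, 23464 and 27358 CPM, neither in 1 direction in all libraries. The Igfbp6-positive cells were deeper, with a median of 14604, 13616, 12357 and 8031 UMIs against 11969.5, 10972.5, 9666 and 7439, and the part of depth in these differences was not tested.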
